A study of Homo sapiens with 40 samples.

Results

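IRAK4 and 9 genes that work with it at Toll-like receptors were followed across human microglia-like cells: the receptors TLR1, TLR2 and TLR4, the coreceptor CD14, the adaptor MYD88, the kinases IRAK1, IRAK2 and IRAK3, and the ubiquitin ligase TRAF6. All 10 were found among the 60504 genes of the deposited table by symbol, and all 10 were among the 14855 that passed a filter on low values and were tested. IRAK4 was selected on its TPM values, which were near 0 in the TREM2-R47H line, so its level there is a description and carries no test. The other 9 were chosen as its partners in the pathway.

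The cells resemble the brain's resident macrophages and were grown from the embryonic stem cell line H9, which is established in culture. There were 40 libraries: 7 from the unedited line (WT), and, from lines made homozygous at 1 locus with CRISPR/Cas9, 8 for TREM2-KO, 7 each for TREM2-R47H, SORL1-KO and SORL1-A528T, and 2 each for CD33-SNP and INPP5D-SNP. The SORL1 edits named in the labels are a stop-gain change (SORL1R744X) and A528T, and INPP5D-SNP carries the A allele of a polymorphism for which H9 itself is heterozygous. All lines shared the same schedule: progenitors were collected on day 11 and matured for 28 days in IL-34 (100 ng/mL), TGF-β1 (50 ng/mL) and M-CSF (25 ng/mL), with CD200 and CX3CL1 (100 ng/mL each) for the last 3 days. No Toll-like receptor ligand is named among these treatments, and the labels do not say how many clones stand behind a line or whether libraries of a line are separate cultures. The p-values therefore rest on a spread among libraries that may be technical.

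Toll-like receptors recognise microbial and damage-associated molecules at the surface or in endosomes of myeloid cells. Ligand binding brings the adaptor MYD88 to the receptor, and MYD88 gathers IRAK4, which activates IRAK1 and IRAK2 in a complex called the Myddosome. These kinases engage TRAF6, whose ubiquitin chains activate TAK1 and the IKK complex and so release NF-κB, while IRAK3 (IRAK-M) is known as a brake on the same step in macrophages. Interleukin-1 and interleukin-18 receptors use the same adaptor and kinases.

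Levels are in TPM (transcript abundance scaled for gene length and to the same total in each library), and changes are differences of log2(TPM + 1), which understate the change of genes with low values. Genes at or above 1 TPM numbered 13208 to 14086 per library, and the labels give a mean depth of 45.13 M reads (39.2 M to 64.6 M); TPM keeps no counts, so the depth of each library is unknown. The 10 listed markers of microglia and macrophages summed to between 4670 and 9656 TPM per library, and none was under 1 TPM in all libraries. TMEM119, one of them, was low, at 4.19 ± 2.49 TPM in WT (SD, n = 7). The 4 pluripotency markers and the neutrophil granule genes MPO and ELANE were under 1 TPM in every library. The other 3 of the 5 listed neutrophil markers, CSF3R, FCGR3B and CXCR2, passed the filter. The neutrophil list summed to between 25.2 and 113 TPM per library. Library 8 of TREM2-KO and library 7 of SORL1-KO and of SORL1-A528T had the lowest median correlations to their own group, at 0.933 to 0.946. The other 37 were at 0.950 to 0.980. Those lowest libraries are called the libraries that stand apart, but no clear gap sets them off. TREM2-KO library 4 was next, at 0.950, and the library after it was at 0.965. TREM2-KO library 4 was also the nearest to TREM2-KO library 8. The fits without the libraries that stand apart keep TREM2-KO library 4.

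IRAK4 (ENSG00000198001) lies on chromosome 12 at 43758944 to 43789543 (GENCODE 29, GRCh38, plus strand). PUS7L, an enzyme of the pseudouridine synthase family, lies head to head with it on the minus strand, at 43718993 to 43758817. The 126 bases between the 2 annotated starts are shown because both genes were near 0 in TREM2-R47H and both face this interval, chr12:43758818-43758943. It is the GRCh38 reference (RefSeq promoter table, GRCh38.p14) on the plus strand, read from the start of PUS7L to the start of IRAK4. The capitals mark a GC box, GGGCGG, which was the motif searched, on both strands.

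IRAK4-PUS7L: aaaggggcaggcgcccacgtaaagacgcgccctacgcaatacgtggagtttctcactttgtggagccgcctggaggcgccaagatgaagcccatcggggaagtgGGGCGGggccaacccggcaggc

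The GC box is at position 105 of the interval, counted from its first base. A match was present in 34.3% of the 35116 promoter windows at the same offsets, so the motif is common, and the match is a description of the letters and not of binding. The sequence is that of the reference and not of any of these lines.

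IRAK4 was nearly undetected in TREM2-R47H and present in all other lines. The 7 TREM2-R47H libraries read 0, 0.02, 0.2, 0.04, 0.18, 0.21 and 0.12 TPM. In WT the lowest, median and highest libraries were at 4.87, 6.47 and 7.38 TPM, and in TREM2-KO at 4.62, 6.96 and 10.92 TPM. TREM2-R47H thus averaged 0.11 ± 0.09 TPM (SD, n = 7), 1.74% of the WT mean of 6.34 ± 0.91 TPM (SD, n = 7). The loss was not shared by the other TREM2 line, where the mean was 7.15 ± 1.99 TPM (SD, n = 8).

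In SORL1-KO, IRAK4 was at 1.75, 5.33 and 8.02 TPM in the lowest, median and highest library, and in SORL1-A528T at 2.45, 4.97 and 8.66 TPM. The 2 CD33-SNP libraries were at 5.72 and 2.27 TPM and the 2 INPP5D-SNP libraries at 5.97 and 5.31 TPM. Ordered by mean, the lines ran TREM2-KO, WT, INPP5D-SNP, SORL1-A528T, SORL1-KO, CD33-SNP and TREM2-R47H. Every pair of neighbours in that order overlapped except the last: the highest TREM2-R47H library, at 0.21 TPM, was below the lowest library elsewhere, at 1.75 TPM. In libraries 2 and 3 of both SORL1 lines IRAK4 was at 1.75 to 2.64 TPM, the lowest of those lines.

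IRAK4 did not pass the test against WT in any of the lines outside TREM2-R47H. Its changes were 0.12 (95% interval -0.31 to 0.56; limma adjusted p = 0.878) in TREM2-KO, -0.46 (-0.91 to -0.01; adjusted p = 0.434) in SORL1-KO and -0.33 (-0.78 to 0.11; adjusted p = 0.999) in SORL1-A528T. They were -0.64 (-1.31 to 0.03; limma adjusted p = 1) in CD33-SNP and -0.14 (-0.81 to 0.54; adjusted p = 0.898) in INPP5D-SNP, where 2 libraries leave wide intervals. In TREM2-R47H the difference from WT was -2.72 at a pseudocount of 1 TPM, -5.05 at 0.1 TPM and -1.15 at 5 TPM, so its size on this scale is set by the pseudocount.

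The gene across the shared interval followed the same pattern and the next gene along did not. PUS7L was at 0 to 0.13 TPM in the 7 TREM2-R47H libraries and at 1.08 TPM or more in each of the other 33. Its mean was 0.03 ± 0.04 TPM in TREM2-R47H, 2.88 ± 0.81 TPM in WT (SD, n = 7 each) and 2.58 ± 0.84 TPM in TREM2-KO (SD, n = 8). TWF1, an actin-binding protein encoded 4179 bases beyond the end of IRAK4, was at 20.8, 24.2 and 30.3 TPM in the lowest, median and highest TREM2-R47H library against 22.4, 26.3 and 32.95 TPM in WT. These ranges overlap, and the difference was -0.09. Of 12 annotated genes within 500 kb of IRAK4, 3 passed the filter (PUS7L, TWF1 and TMEM117), and no other exceeded a group mean of 0.115 TPM. TMEM117 averaged 4.59 TPM in TREM2-R47H and 3.99 TPM in WT, a difference of 0.18. The genomic DNA of the lines was not analysed here, and whether the sequence at this locus differs in TREM2-R47H was not tested.

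**Figure D1:**
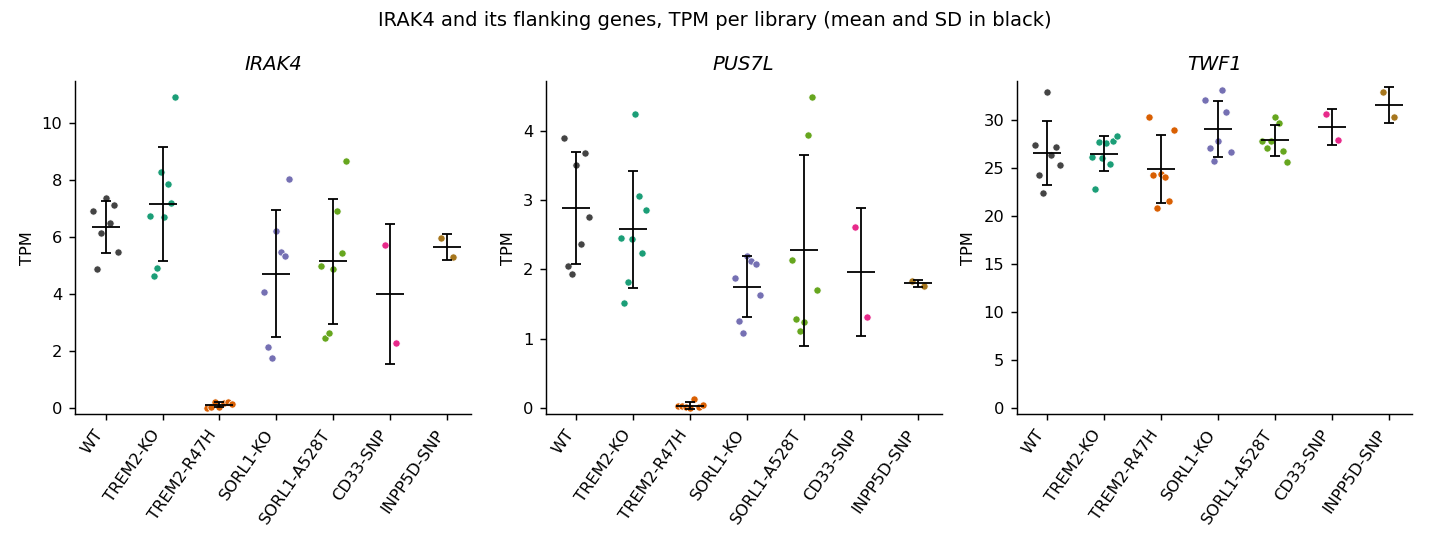
IRAK4, PUS7L and TWF1 in TPM (vertical axes, linear from 0) in each of the 40 libraries (points) by line, with the mean and SD in black. The 7 TREM2-R47H libraries lie at or below 0.21 TPM for IRAK4 and at or below 0.13 TPM for PUS7L, whereas for TWF1 they run from 20.8 to 30.26 TPM and overlap WT.

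Among the kinases downstream of IRAK4, IRAK3 was the member other than IRAK4 whose TREM2-R47H libraries lay wholly below WT. IRAK3 (chromosome 12, 66188879 to 66254622) was at 6.41, 8.6 and 10.55 TPM in the lowest, median and highest TREM2-R47H library. It was at 17.01, 22.02 and 35.07 TPM in WT and at 16.35, 24.2 and 58.68 TPM in TREM2-KO. The ranges of TREM2-R47H and WT did not overlap, as for 3.51% of tested genes in this direction, and the means were 8.57 ± 1.79 and 22.7 ± 5.89 TPM (SD, n = 7 each). Both SORL1 lines spread more widely than WT, at 9.67 to 36.87 TPM in SORL1-KO and 12.51 to 34.16 TPM in SORL1-A528T.

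IRAK1 (chromosome X, 154010500 to 154019980), the kinase that IRAK4 phosphorylates, was the most abundant of the 4, with a WT mean of 111 ± 13.3 TPM (SD, n = 7). It was at 116.92, 139.85 and 142.63 TPM in the lowest, median and highest TREM2-R47H library against 88.33, 112.82 and 129.82 TPM in WT, so the ranges overlap although all 7 TREM2-R47H libraries lay above the WT mean. In TREM2-KO it ran from 57.51 to 138.04 TPM, with libraries 4 and 8 lowest. IRAK2 (chromosome 3, 10164865 to 10243743), which sustains the response after IRAK1, was far lower in TPM, at 8.47 ± 0.83 TPM in WT (SD, n = 7), and its group means ran from 6.93 TPM in SORL1-KO to 8.65 TPM in TREM2-KO. All 7 SORL1-KO libraries were below the WT mean for IRAK2, and the ranges overlapped, at 6.06 to 8.29 TPM against 7.05 to 9.45 TPM.

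The receptors did not move as a block. TLR2 (chromosome 4, 153684070 to 153705702), which binds bacterial lipoproteins together with TLR1 or TLR6, was at 15.71, 20.1 and 34.72 TPM in the lowest, median and highest TREM2-R47H library. It was at 23.9, 31.5 and 87.18 TPM in WT and 30.24, 42.3 and 78.31 TPM in TREM2-KO. The 2 INPP5D-SNP libraries were at 86.03 and 44.05 TPM and the 2 CD33-SNP libraries at 75.54 and 24.19 TPM. Only library 4 of TREM2-R47H reached the range of WT.

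TLR1 (chromosome 4, 38790677 to 38856817), the partner of TLR2, was at 41.16, 51.8 and 89.94 TPM in TREM2-R47H and 54.79, 61.7 and 78.73 TPM in WT, lowest, median and highest. Its TREM2-R47H libraries lay on both sides of WT. TLR4 (chromosome 9, 117704175 to 117724730), the receptor for lipopolysaccharide, was narrow in WT at 33.91 to 40.5 TPM and ran from 25.18 to 51.15 TPM in TREM2-R47H. In SORL1-A528T library 7 alone was high, at 92.44 TPM, and the other 6 lay between 36.36 and 41.93 TPM. In SORL1-KO libraries 4 and 7 were high, at 56.0 and 97.91 TPM, and the rest at 33.12 to 36.15 TPM. In TREM2-KO libraries 4 and 8 were high, at 68.86 and 90.55 TPM, and the rest at 35.81 to 46.46 TPM. The 2 INPP5D-SNP libraries, at 48.08 and 48.85 TPM, were above all 7 of WT, as were 5.71% of tested genes in that pair of groups.

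CD14 (chromosome 5, 140631728 to 140633701), which hands lipopolysaccharide to TLR4, varied widely among libraries of a line, with a highest WT library 7.46 times the lowest. It was at 25.06, 34.5 and 95.21 TPM in the lowest, median and highest TREM2-R47H library, 51.23, 62.8 and 382.05 TPM in WT and 47.15, 76.9 and 233.55 TPM in TREM2-KO. Library 4 was the highest in WT, TREM2-KO, TREM2-R47H and SORL1-A528T, and in SORL1-KO library 7, at 232.8 TPM, was above library 4, at 170.97 TPM. Without the libraries numbered 4, CD14 averaged 59.9 ± 5.85 TPM in WT and 31.1 ± 5.01 TPM in TREM2-R47H (SD, n = 6 each). Library 4 also had the highest sum of the 8 listed monocyte markers in each of those 5 lines, from 371 TPM in TREM2-R47H to 3241 TPM in WT. The part of these markers in the level of CD14 was not tested.

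MYD88 (chromosome 3, 38138478 to 38143022), the adaptor, had a narrow range. It was at 37.21, 40.1 and 55.83 TPM in the lowest, median and highest TREM2-R47H library and 50.02, 50.9 and 65.02 TPM in WT; 6 of 7 TREM2-R47H libraries lay under the lowest of WT. TRAF6 (chromosome 11, 36487027 to 36510272), the ubiquitin ligase, had group means between 9.44 TPM in INPP5D-SNP and 11.4 TPM in WT, and each line overlapped WT.

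**Figure D2:**
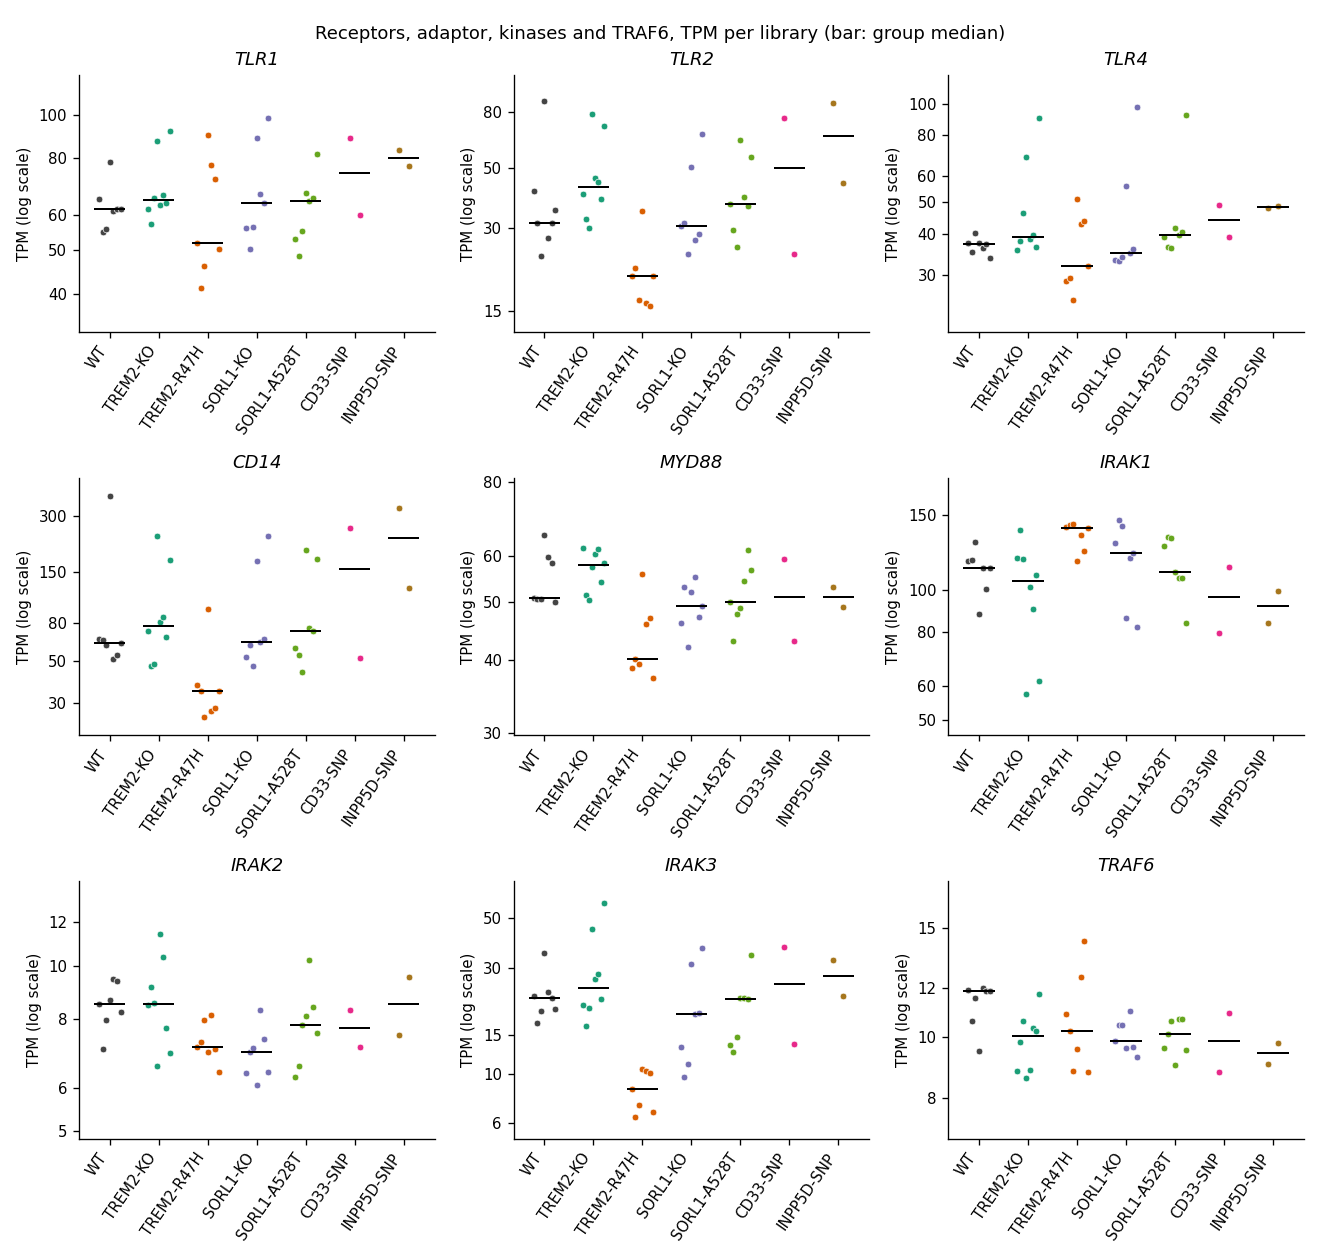
TPM on a log axis for the 9 members other than IRAK4 in each library (points) by line, with the group median as a bar. TREM2-R47H has the lowest group median for IRAK3 (8.6 TPM, range 6.41 to 10.55 TPM), TLR2 (20.1 TPM) and CD14 (34.5 TPM). The same holds for MYD88 (40.1 TPM), TLR1 (51.8 TPM) and TLR4 (32.06 TPM). The TREM2-R47H libraries lie wholly below those of WT for IRAK3 alone and overlap them for every other gene shown.

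Against WT, TREM2-R47H had 3 of the 9 members other than IRAK4 called at adjusted p below 0.05, all lower: IRAK3 (-1.30), TLR2 (-0.83) and MYD88 (-0.34). Over all tested genes 11.4% were called in this contrast, 8.77% lower. This contrast is the one in which IRAK4 stood out, so the counts are a description and nothing is read from them. CD14 (-1.09), IRAK2 (-0.19), TRAF6 (-0.09), TLR1 (-0.08), TLR4 (-0.07) and IRAK1 (0.27) did not pass. The median change of the 9 was -0.19, beside -0.06 for all tested genes. With the library number as a block, which pairs libraries of these 2 lines, 5 of 9 were called, CD14 lower and IRAK1 higher in addition. The share of all tested genes called with the block is not given, so this count too is a description. TLR2 lost its call at a pseudocount of 5 TPM (adjusted p = 0.0503), with no filter (0.0886), after median-ratio scaling (0.0662) and when libraries 5 and 6 were averaged (0.0969), all from limma.

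Some cell-type markers were also lower in TREM2-R47H than in WT. The 8 monocyte markers summed to 121 to 371 TPM in TREM2-R47H and 247 to 3241 TPM in WT, with 1 of the 8 wholly below WT. Of these 8, S100A8, S100A9 and S100A12 were called lower in TREM2-R47H and none higher. The microglia and macrophage markers summed to 4670 to 6411 TPM and 6080 to 6756 TPM, and of the 10 tested AIF1, C1QA and ITGAM were called lower and none higher. The endothelial and stromal markers summed to 133 to 271 TPM and 189 to 3191 TPM, and of the 8 tested DCN, LUM, TAGLN, COL3A1 and PECAM1 were called lower in TREM2-R47H. DCN and LUM were also called lower than WT in TREM2-KO and SORL1-KO, where no member was called. Across the 40 libraries the correlation of the monocyte sum with each member, on the log2 scale, was 0.87 for TLR2, 0.82 for IRAK3, 0.81 for CD14, 0.79 for MYD88, 0.72 for IRAK4, 0.56 for TLR1, 0.42 for IRAK2, 0.36 for TLR4, -0.41 for TRAF6 and -0.75 for IRAK1. With the microglia and macrophage sum it was 0.90 for TLR4, 0.87 for IRAK3, 0.82 for TLR2, 0.81 for CD14, 0.80 for TLR1, 0.69 for IRAK4, 0.58 for MYD88, -0.04 for IRAK2, -0.18 for TRAF6 and -0.86 for IRAK1. With the endothelial and stromal sum it was 0.524 for IRAK3, 0.486 for MYD88, 0.471 for TLR2, 0.461 for CD14 and 0.449 for IRAK4. For the rest it was 0.392 for TLR1, 0.355 for IRAK2, 0.295 for TLR4, 0.067 for TRAF6 and -0.513 for IRAK1. These points share lines, library numbers and the fixed total of TPM. The values for IRAK4 include the TREM2-R47H libraries for which it was chosen. The part of these markers in the differences was not tested. In RNA from whole cultures, fewer cells of a type and less RNA per cell cannot be told apart.

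TREM2-KO against TREM2-R47H sets the line without the receptor beside the line with an altered one, and 5 of the 9 members differed. The means were 29.6 ± 14.7 against 8.57 ± 1.79 TPM for IRAK3, 47.6 ± 17.5 against 20.7 ± 6.61 TPM for TLR2, 101 ± 66.8 against 40.3 ± 24.7 TPM for CD14 and 57.0 ± 4.43 against 43.5 ± 6.59 TPM for MYD88 (SD, n = 8 and 7). For IRAK1 they were 99.5 ± 28.3 and 134 ± 10.2 TPM. Of the 9 members, 4 were called higher in TREM2-KO and 1 lower; 21.3% of all tested genes were called, 14.7% higher and 6.58% lower. IRAK3 was higher by 1.57 ± 0.26 (SE; limma adjusted p = 2.59e-05), with no overlap between the 8 and 7 libraries, as for 3.9% of tested genes in this direction.

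TLR2 was higher by 1.14 ± 0.26 (limma adjusted p = 0.0016) and MYD88 by 0.39 ± 0.08 (adjusted p = 0.00071), with overlapping ranges. CD14 was higher by 1.24 ± 0.44 (limma adjusted p = 0.0403), a call that was lost without the filter (0.0923), with median-ratio scaling (0.0578), without the 3 libraries that stand apart (0.0636) and with libraries 5 and 6 averaged (0.0977). IRAK1 was lower by 0.48 ± 0.15 (SE; limma adjusted p = 0.0161, and 0.0552 in a fit of the 2 lines alone). IRAK2 (0.21, adjusted p = 0.11), TLR1 (0.22, 0.323), TLR4 (0.40, 0.184) and TRAF6 (-0.10, 0.401) did not pass limma's test. This comparison uses the same TREM2-R47H libraries as the one against WT, so the 2 sets of values are not independent. The monocyte markers summed to 289 to 2152 TPM in TREM2-KO. Against TREM2-R47H, 6 of 8 monocyte, 4 of 10 microglia and macrophage and 2 of 3 neutrophil markers were called higher in TREM2-KO. So were 1 of 8 endothelial and stromal and 1 of 2 haematopoietic progenitor markers, and none of these lists had a marker called lower. The part of these markers in the differences between the 2 lines was not tested.

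**Figure D3:**
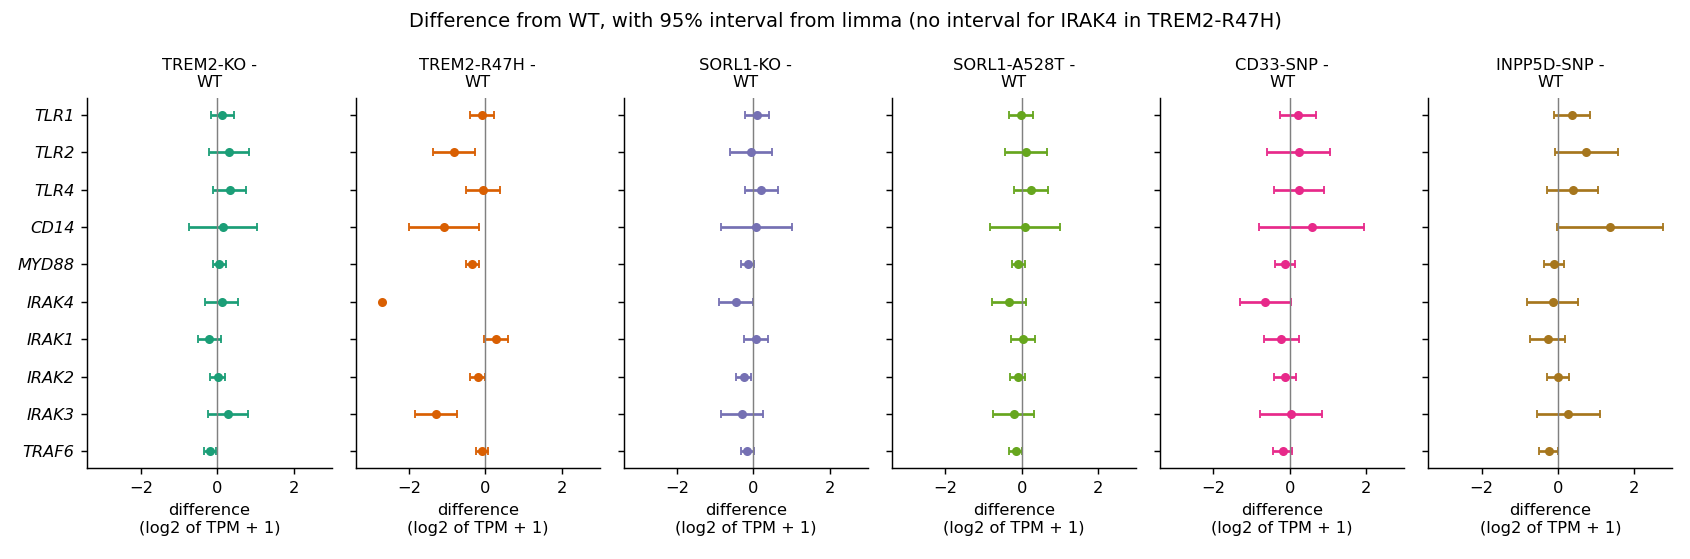
Difference from WT in log2(TPM + 1) for each member (rows) in each edited line (panels), with limma's 95% interval; IRAK4 in TREM2-R47H is a point alone because it was chosen for that value. Points left of 0 are lower than WT; IRAK4 and IRAK3 in TREM2-R47H lie farthest left, at -2.72 and -1.30, and intervals are widest in the 2 lines with 2 libraries.

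No member was called against WT in TREM2-KO, SORL1-KO, SORL1-A528T, CD33-SNP or INPP5D-SNP (limma, 0 of 10 in each). The shares called over all tested genes were 1.61%, 1.09%, 0.0471%, 0.0% and 0.0337% in the same order. At an unadjusted p below 0.05 there were 1 member in TREM2-KO (TRAF6, -0.19), 2 in SORL1-KO (IRAK2, -0.26, and IRAK4, -0.46) and 0 in the other 3 lines. The share of all tested genes at this unadjusted threshold is not given, so nothing is read from these counts. The intervals still allow sizeable changes: that of CD14 ran from -0.74 to 1.04 in TREM2-KO and from -0.02 to 2.75 in INPP5D-SNP. In INPP5D-SNP both libraries were above the WT mean for CD14, TLR1, TLR2 and TLR4, and the endothelial and stromal markers summed to 832 and 2188 TPM there against 189 to 3191 TPM in WT. The monocyte markers summed to 2799 and 607 TPM there against 247 to 3241 TPM in WT (median 428 TPM). Over all tested genes, INPP5D-SNP library 1 was nearest to WT library 4. It was lower than that library for CD14 (331.24 against 382.05 TPM) and TLR2 (86.03 against 87.18 TPM). It was higher for TLR1 (83.36 against 78.73 TPM) and TLR4 (48.08 against 37.66 TPM). The part of those markers, and of this likeness, was not tested.

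The wider pathway was read from a list of 58 other genes, of which 54 were tested (LBP, IL18RAP, IL1RL1 and TLR9 were too low). Between TREM2-KO and TREM2-R47H, 16 were called higher in TREM2-KO, 3 lower and 35 not at all (14.7% and 6.58% of all tested genes were called higher and lower), with a median change of 0.23 beside 0.06 for all tested genes. By role, 4 of 10 other receptors and coreceptors were higher (TLR8, CD36, LY86, TLR6) and 1 lower (TLR3). Of the 3 tested interleukin-1 family receptors, 2 were higher (IL18R1, IL1RAP), as were 2 of 4 chaperones and trafficking factors of the receptors (HSP90B1, CNPY3) and 2 of 5 other adaptors (SARM1, TIRAP). None of the 6 ubiquitin enzymes was called. Among 8 inhibitors, TNIP1 and SIGIRR were higher and DUSP1 was lower.

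TLR8, an endosomal receptor for single-stranded RNA, was at 27.3 ± 20.4 TPM in TREM2-KO (SD, n = 8) and 9.44 ± 5.90 TPM in TREM2-R47H (SD, n = 7), a change of 1.35 (limma adjusted p = 0.011). CD36, a scavenger receptor that assists TLR2, was at 113 ± 69.7 and 45.1 ± 11.5 TPM, with every TREM2-KO library (68.77 TPM or more) above every TREM2-R47H library (62.76 TPM or less; change 1.182, limma adjusted p = 0.00235). IL18R1, the interleukin-18 receptor chain, was at 6.22 ± 1.03 and 2.31 ± 0.61 TPM, again without overlap (1.13, limma adjusted p = 9.99e-08). MAP3K8, a kinase that carries the signal to ERK, was at 26.0 ± 8.80 and 12.1 ± 3.40 TPM (1.02, limma adjusted p = 0.000175).

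Set beside WT, the TREM2-R47H values of the same genes were lower by -1.26 for TLR8, -1.176 for CD36, -0.86 for IL18R1 and -0.76 for MAP3K8. In that contrast 12 of 54 were called lower (8.77% of all tested genes were), 1 higher (TLR3, at 1.72 ± 1.28 TPM against 0.59 ± 0.32 TPM, SD, n = 7 each) and 41 not at all, with a median of -0.18; these are descriptions, as above. In TREM2-KO against WT, DUSP1, a phosphatase that ends MAP kinase signalling, fell by 0.56 (limma adjusted p = 0.000111), from 41.9 ± 5.69 (SD, n = 7) to 28.2 ± 4.39 TPM (SD, n = 8). Of the other 53, none was called and 3 had an unadjusted p below 0.05 (NFKB1, CNPY3 and TLR6). This is 1 call among 54, beside 1.61% of all tested genes, and is not read as a result about the pathway. With the library number as a block, which pairs libraries of these 2 lines, 3 were called in the fit of all libraries (DUSP1, NFKB1 and TLR6) and 2 in the fit of the 2 lines alone (DUSP1 and TRAF3). The shares of all tested genes with the block, or at the unadjusted threshold, are not given, so those counts are descriptions. The endothelial and stromal markers summed to 194 to 464 TPM in TREM2-KO, and 3 of the 8 tested (DCN, LUM and COL1A2) were called lower than in WT; their part was not tested.

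In SORL1-KO, IL18R1 was lower by -0.70 (limma adjusted p = 0.0081), at 2.66 ± 0.38 against 5.03 ± 1.23 TPM in WT (SD, n = 7 each), the highest SORL1-KO library at 3.3 TPM lying below the lowest of WT at 3.46 TPM, as for 0.438% of tested genes. The endothelial and stromal markers summed to 145 to 424 TPM in SORL1-KO, and 3 of the 8 tested (DCN, LUM and COL1A2) were called lower than in WT; their part was not tested. None of the 54 was called in SORL1-A528T, CD33-SNP or INPP5D-SNP by limma, with 3, 2 and 2 at an unadjusted p below 0.05. The share of all tested genes at the unadjusted threshold is not given, so nothing is read from those 3 counts.

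Genes that NF-κB is known to induce were counted from a list of 19, of which 16 were tested (IL6 and CXCL2 were too low, and SOD2 matched no identifier). Between TREM2-KO and TREM2-R47H, 7 were called higher in TREM2-KO (CXCL1, TNF, NFKBIZ, IL10, IL1A, IL1B and PTGS2), 2 lower (CCL5 and CCL3) and 7 not at all, beside the same 14.7% and 6.58% of all tested genes. TNF, the cytokine, was at 6.64 to 31.38 TPM in TREM2-KO and 3.82 to 5.97 TPM in TREM2-R47H, without overlap (1.56, limma adjusted p = 0.000167). CCL5, a chemokine, went the other way, at 0.92 to 3.09 TPM and 2.81 to 25.28 TPM (-2.15, limma adjusted p = 2.76e-05). The list therefore did not move in 1 direction.

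Against WT, TREM2-R47H had 6 of the 16 called lower and 1 higher, beside 8.77% of all tested genes called lower, as a description: TNF averaged 4.89 ± 0.92 TPM against 19.0 ± 4.97 TPM, IL1B 65.4 ± 19.0 against 159 ± 50.1 TPM and CCL5 15.1 ± 9.68 against 2.57 ± 1.75 TPM (SD, n = 7 each). In TREM2-KO against WT, CCL4 alone was called, lower by -1.53 (limma adjusted p = 0.0177; 8.32 ± 2.05 TPM, SD, n = 8, against 29.2 ± 14.98 TPM, SD, n = 7); with the library number as a block 2 were called, CCL3 in addition, and without the libraries numbered 4 CCL4 was not called (-1.35, limma adjusted p = 0.111). In SORL1-KO, IL1A (-0.70, limma adjusted p = 0.0462) and PTGS2 (-0.46, adjusted p = 0.0451) were called lower. Neither was called without the filter, in fits of the 2 lines with or without the block, without the libraries numbered 4 or with libraries 5 and 6 averaged. IL1A also lost its call with median-ratio scaling. With the block in a fit of every library both were called, and TNF in addition. In the main fit 1.61% of all tested genes were called in TREM2-KO and 1.09% in SORL1-KO. Shares with the block are not given.

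Members varied together from library to library. IRAK1 and IRAK3 ran in opposite directions across the 40 libraries, with Pearson's r of -0.90 (Spearman's rho -0.93) on log2(TPM + 1), and r was -0.93 after the mean of each line was removed. TLR2 and CD14 ran together, with r of 0.96 (rho 0.93), and 0.97 after line means were removed. IRAK4 and IRAK3 had r of 0.87, and 0.84 after line means were removed. The libraries share lines, numbers and the fixed total of TPM, so these are descriptions without a test.

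**Figure D4:**
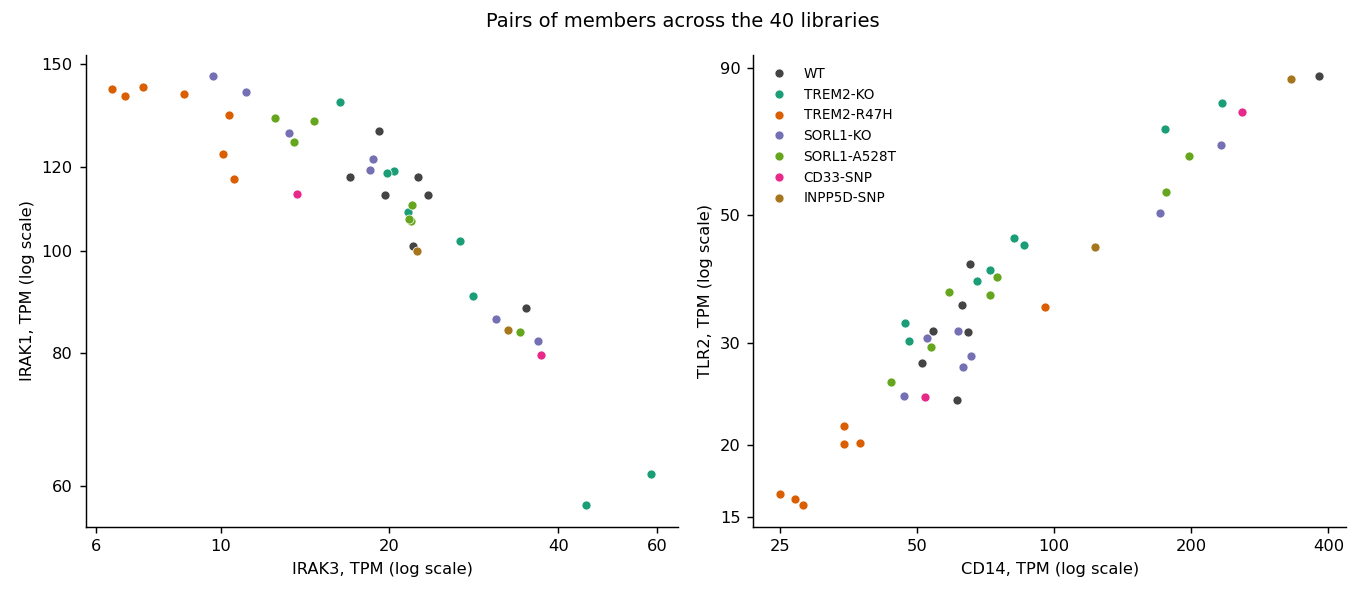
IRAK1 against IRAK3 (left) and TLR2 against CD14 (right) in TPM on log axes, with a point for each of the 40 libraries coloured by line. IRAK1 runs from 146.12 TPM at low IRAK3 to 57.51 TPM at high IRAK3, with TREM2-R47H at the low end of IRAK3, and the highest values of TLR2 and CD14 belong to WT library 4.

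The genes most like IRAK4 across all 40 libraries, ranked by Pearson's r among 14664 tested genes with a symbol, were the microRNA host MIR3142HG (0.93), ANXA6 (0.93), PUS7L (0.92), NOTCH1 (0.91) and NCF1B (0.91), a pseudogene whose reads cannot be told from those of its near-identical copies. ANXA6, an annexin, averaged 9.30 TPM in TREM2-R47H and 51.4 TPM in WT. IRAK3 was at rank 20 and IRAK1 at rank 14446 (-0.63). Over the 33 libraries outside TREM2-R47H the first 5 were RAB11FIP1 (0.88), ARID3B (0.84), FGD2 (0.84), IRAK3 (0.84) and PREX1 (0.84), and PUS7L was at rank 820 (0.65). The order of genes most like IRAK4 thus depended on whether TREM2-R47H was counted.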

How the data were processed

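RNA from the 40 libraries was sequenced as directional pairs of 150 bp from 500 ng of RNA whose integrity number was 9 or higher, per the labels' protocols. The authors deposited TPM values, 1 column per library; the tools listed in the submitters' processing notes are DESeq2, RSEM 1.3.1, STAR 2.7 and cutadapt 1.18. The authors' genome build and annotation count as not given in the sources used here. Columns summed to between 999999.15 and 1000000.76. Symbols were found for 93.5% of identifiers, and positions are those of GENCODE 29 (GRCh38), matched by Ensembl identifier for 94.2%.

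Groups came from the labels. log2(TPM + 1) was fitted with limma 3.58.1 (R 4.3.3; 7 group means, all 40 libraries, trended and robust variance). A gene was kept if 7 or more libraries reached 1 TPM (14855 genes). Two-sided p-values were adjusted over these genes by the Benjamini-Hochberg method, and calls are at an adjusted p below 0.05. The procedure was tested on simulated data. Read counts were not used here, so precision rests on the spread between libraries.

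The members and lists were chosen with earlier results of these data known. Named genes are the 10 members, up to 4 called pathway genes per comparison with the largest change and at least 5 TPM in a group, genes within 500 kb of IRAK4, and the 5 most like it in each of 2 rankings; other names were chosen after their values were seen. Of the marker lists, haematopoietic progenitor markers summed to at most 22.6 TPM and neutrophil markers to at most 113 TPM in any library.

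Library numbers were taken to pair 2 lines where the correlation of same-numbered residuals was above 0.1 for each shared number. This held for TREM2-KO with WT (0.114 to 0.312, 7 pairs) and TREM2-R47H with WT (0.140 to 0.278, 7 pairs), and not for the other comparisons. The alternatives were pseudocounts of 0.1 and 5 TPM, no filter, median-ratio scaling, the library number as a block, fits of 2 lines alone and, for CD33-SNP and INPP5D-SNP, omission of each library in turn. A further 4 were chosen after seeing the data: leaving out the 3 libraries that stand apart, leaving out the libraries numbered 4, averaging libraries 5 and 6, which were nearest each other in each of the 5 larger lines, and the block in fits of 2 lines.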

Additional observations from a re-analysis of the deposited data

Results flagged for a closer look

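Of 50 sets of libraries (a member in a line of 7 or 8), 8 had an end library farther from its nearest neighbour than Dixon's 95% limit allows. Chance gives about 1 in 20 for a single set. The sets are not independent, since they share libraries and members vary together (TLR2 with CD14, r of 0.97 after line means were removed). The 8 therefore cannot be weighed against that rate. WT library 4 was highest and apart for CD14 (382.05 TPM), TLR2 (87.18 TPM), TLR1 (78.73 TPM) and IRAK3 (35.07 TPM). TREM2-R47H library 4 was apart for CD14 (95.21 TPM) and TLR2 (34.72 TPM). The same 2 libraries had the highest monocyte marker sums of their lines, at 3241 and 371 TPM. TLR4 was apart in library 7 of SORL1-KO (97.91 TPM) and of SORL1-A528T (92.44 TPM). These are 2 of the 3 libraries with the lowest median correlation to their own line over all genes.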

How the results depend on the processing

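Of 740 changes of members recomputed under the alternatives, 700 kept their direction and their side of the threshold, and 16 changed sign, none of them called. The 740 include IRAK4 in the comparisons with TREM2-R47H, where it was chosen for its value. They also include the comparisons in which no member was called, where staying uncalled shows little. The 700 are therefore a description. Blocking on library number in a fit of every library raised the calls to 3 other pathway genes in TREM2-KO, 5 members in TREM2-R47H, 1 member (IRAK2) and 5 other pathway genes in SORL1-KO, and 3 members (TLR1, TLR2, CD14) and 9 other pathway genes in INPP5D-SNP. Between TREM2-KO and TREM2-R47H it called 6 members, IRAK2 in addition. In fits of 2 lines with the block there were 2 other pathway genes in TREM2-KO and 5 members in TREM2-R47H. Without the block, the fit of INPP5D-SNP and WT alone called 1 member, TLR4. The shares of all tested genes called in these alternative fits are not given here. Whether the members and pathway genes gained more calls than other genes therefore cannot be told. By the rule above, the numbers pair libraries in the 2 TREM2 lines with WT. For SORL1-KO, 4 of 7 same-numbered correlations with WT were above 0.1 (range -0.105 to 0.288), and for INPP5D-SNP 1 of 2. The rule was not met there, although some same-numbered libraries of SORL1-KO and WT were correlated.

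Leaving out either CD33-SNP library gave a range that crossed 0 for IRAK1 (-0.467 to 0.0317), IRAK3 (-0.658 to 0.723), MYD88 (-0.341 to 0.109), TLR1 (-0.0577 to 0.506), TLR2 (-0.567 to 1.036) and CD14 (-0.573 to 1.712), and leaving out either INPP5D-SNP library did so for IRAK2 (-0.153 to 0.158). With the block, IRAK4 turned in INPP5D-SNP (0.0979), as did MYD88 in the fit of 2 lines (0.0075). Without the libraries numbered 4, TLR2 turned in SORL1-KO (0.0579), and IRAK1 (-0.0163) and TLR1 (0.0133) in SORL1-A528T. Without the 3 libraries that stand apart, CD14 turned in SORL1-KO (-0.174) and SORL1-A528T (-0.0958). IRAK2 turned in TREM2-KO with libraries 5 and 6 averaged (-0.0078), and TLR4 in TREM2-R47H with median-ratio scaling (0.0069). The cause of these changes was not tested.

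With 2 libraries each, CD33-SNP and INPP5D-SNP can show only large changes. TPM keeps no counts, so counting error at the low levels of IRAK4 and PUS7L in TREM2-R47H could not be given.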
